A study of Mus musculus with 24 samples.

Results

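Expression of hypothalamic genes was set against the total energy intake of each mouse, within genotype, in all 24 of the 24 F2 mice of the series. No library was left out, and each was tied by its colony number to the kcal the mouse had eaten in total over 10 d. The quantity followed for each of 13998 genes is a slope, the change of log2(normalized count + 1) per 10 kcal of total intake with genotype as a covariate, so that the difference between the genotypes plays no part in it. A slope of 1 is a change of 1 log2 unit for every 10 kcal. Intake was measured and not assigned, so a slope describes how expression and intake varied together between mice. It was taken as eaten, without the adjustment for fat source, age, body weight and lean mass that the study made. In the study, mice of greater body weight or lean mass tended to eat more total kcal, and the part of body size in the slopes was not tested.

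The animals were male F2 progeny of the B6.CAST-17.1 subcongenic strain and C57BL/6J. They carried either 2 *cast* alleles (*cast/cast*, n = 12) or 2 *b6* alleles (*b6/b6*, n = 12) along a segment of Chr 17 derived from CAST/EiJ, and were *b6/b6* everywhere else. All were young adults housed singly and offered a carbohydrate/protein (C/P) and a fat/protein (F/P) diet together for 10 d. After a period back on chow they met both diets again for a short time, and the hypothalamus was then removed and profiled by SAGE-Seq, which counts a short tag near the 3′ end of each transcript. Several features limit these groups as a model. The mice were picked for how far C/P and total intake diverged between the genotypes, the *cast/cast* mice from those eating most and the *b6/b6* mice from those eating least of the C/P diet. Total intake, against which expression is set here, was thus itself part of the selection, and its range within a genotype was narrowed by it. The intake was that of the earlier 10 d test and not that of the days before tissue collection. The segment holds many genes, and the tissue is a mixture of cell types, in which fewer cells of a type and less RNA per cell cannot be told apart.

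The hypothalamus balances energy intake against stores. Neurons of the arcuate nucleus read leptin, insulin and nutrients and release peptides that either stimulate feeding, such as those encoded by *Npy* and *Agrp*, or restrain it, such as those encoded by *Pomc* and *Cartpt*. Neurons of the lateral and paraventricular nuclei, among them those making hypocretin, melanin-concentrating hormone, oxytocin and corticotropin-releasing hormone, carry these signals to arousal, reward and endocrine systems.

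The tags below are shown because they are what a SAGE-Seq library can count for the genes on which the results turn. Each is the predicted 27 bases that start at the CATG nearest the 3′ end of the transcript, 5′ to 3′, with the CATG in capitals, read from the GENCODE transcripts of GRCm38 that pair with the RefSeq records of the deposited table. Which tags were counted for a gene was not analysed here. *Ebf3* (chr7:137193670-137314445, minus strand) has 2 different predicted tags among its transcripts. *Kif15* (chr9:122951080-123018733, plus strand) and *Aim1* (chr10:43950306-44004846, minus strand) have 1 each. The others belong to genes listed here as encoding appetite-reducing peptides.
Ebf3, NM_001113414 and NM_010096: CATGcccgcacccggtttgtgttgtag
Ebf3, NM_001113415: CATGaacacttgcagttgctaagggac
Kif15: CATGtccagtttttcaaataaaatctt
Aim1: CATGgcttcctcatcacagtactggtg
Npvf: CATGatctgccagcaccaagaaattca
Cartpt: CATGtacaaattacacataataaagca
Oxt: CATGgccactgccagaaaaaaaaaaaa

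Total intake over 10 d in the *b6/b6* mice ran from 94.8 through a median of 106.5 to 120.2 kcal (107.7 ± 8.06, SD, n = 12). In the *cast/cast* mice it ran from 104 through a median of 121.45 to 133.1 kcal (120.2 ± 8.74, SD, n = 12). The genotypes overlapped between 104 and 120.2 kcal. Within each genotype, most of the spread in the total lay in the F/P diet. F/P intake ran from 60 to 80.4 kcal for *b6/b6* and from 0.6 to 49.8 kcal for *cast/cast* mice, and its correlation with the total, of which it is a part, was 0.87 and 0.83. The lowest F/P intake, 0.6 kcal, was that of *cast/cast* replicate 5, which took 106.6 of its 107.2 kcal from the C/P diet. In this mouse a low total and a low F/P intake cannot be told apart. C/P intake correlated with the total by r = 0.45 in *b6/b6* (rho = 0.55) and r = −0.39 among *cast/cast* mice (rho = −0.37), with permutation P of 0.14 and 0.20 for r. Among these selected mice, a greater total intake within a genotype was therefore mainly a greater intake of the F/P diet. C/P intake was itself part of the selection, which narrowed its range within a genotype. Across all F2 mice of the study without a recombination in the segment, genotypes together, total kcal correlated more closely with C/P than with F/P intake.

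Depth was 7754202 to 13082873 tag hits per mouse, and between 11 and 197 genes lacked a tag hit in a library. The libraries of *b6/b6* replicates 6 and 12 and *cast/cast* replicates 4 and 6 stood apart, with median correlations with the other libraries of 0.862 to 0.912. Principal component 1, which held 32.7% of the variance over all genes, correlated with total kcal by r = −0.53 among *cast/cast* mice (rho = −0.41, permutation P = 0.075 for r) and by r = 0.36 in *b6/b6* mice (rho = 0.27, permutation P = 0.26). Without the 2 *cast/cast* mice farthest from the median intake, the former was −0.14. The *cast/cast* mice of lowest intake, replicate 4 at 104 kcal and replicate 5 at 107.2 kcal, both lay high on this component, at 80.9 and 62.1. Of the 12 relations of intake to study number, C/P kcal and library measures, each tested within a genotype by 100000 permutations, none passed the Benjamini-Hochberg adjustment, and the lowest adjusted P was 0.47. Among *b6/b6* mice the largest r of these was that with study number, 0.49 (rho = 0.44, permutation P = 0.10 for r). It was 0.33 without the 2 *b6/b6* mice farthest from the median intake, and −0.07 among all *cast/cast* mice. Lower intake in *b6/b6* mice thus tended to go with a lower study number. For many of the results that rest on the *cast/cast* mice, though not for all, values without the 4 libraries that stand apart, or without a mouse that moves them, are given beside them.

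**Figure D1:**
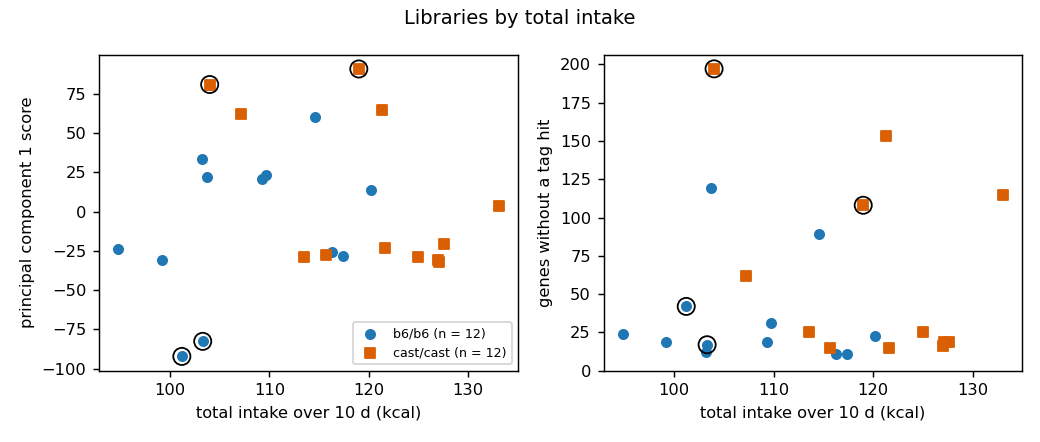
Score on principal component 1 (left) and number of genes without a tag hit (right) of each library against total intake over 10 d in kcal, 12 *b6/b6* mice as circles and 12 *cast/cast* mice as squares, with rings around the 4 libraries least correlated with the others. The *cast/cast* mice at 104 and 107.2 kcal lie high on the component, at 80.9 and 62.1, and the former lacked a tag hit in 197 genes.

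No gene had a slope on total kcal that passed an adjusted P of 0.05. The lowest P was that of *Chmp1b*, a subunit of the endosomal sorting complex that pinches off membranes. Its transcript was more abundant in mice of greater intake in both genotypes, by 1.72-fold per 10 kcal, but its adjusted P was 0.094 by limma. At the looser limit of an unadjusted P of 0.01, which selects 1.77% of all genes, 248 genes had a slope, against 140 expected if no slope differed from 0. Of these, 123 were positive (0.879% of genes tested) and 125 negative (0.893%). By limma 1394 genes reached an unadjusted P of 0.05, or 9.96%. edgeR called 0 genes at an adjusted P of 0.05 and DESeq2 called 1, *Chmp1b*. The median slope of all genes was −0.01, 47.8% of slopes were positive, and the median standard error was 0.14.

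*Chmp1b* (chr18:67205358-67207887) gave 82 to 342 normalized counts with a median of 231 in *b6/b6* mice, and 35.5 to 460 with a median of 279 in *cast/cast* mice. Of the *b6/b6* mice, the 6 of lower intake had a median of 129 and the 6 of higher intake 258, and the corresponding medians in *cast/cast* mice were 214 and 340. Counts thus overlapped between the genotypes and ran higher with intake inside each. The slope was 0.78 ± 0.14 (SE, n = 24; 95% interval 0.49 to 1.06; limma P = 6.7e-06). It was 0.69 ± 0.18 among *b6/b6* and 0.85 ± 0.20 among *cast/cast* mice, and the difference between these was 0.16 ± 0.28 (limma P = 0.58). Over the 24 mice, after removal of the genotype means, r was 0.76 and rho 0.79, and r was 0.73 without the 2 mice of most extreme intake. Since *Chmp1b* has the lowest P of 13998 genes, these correlations describe the choice and add no evidence. In mice with study numbers up to 121 (n = 12) the slope was 0.75, and in those with 197 or more (n = 12) it was 0.59. Without *b6/b6* replicate 2, which had 322 normalized counts at 103.7 kcal, the adjusted P by limma was 0.028. Without any other mouse it was not below the threshold, with 0.31 as the highest value.

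Of the other genes with the lowest P and a positive slope in both genotypes, *Aim1*, a gene of the crystallin superfamily, was measured at 3.11 to 26.7 normalized counts among *b6/b6* and 6.37 to 31.2 among *cast/cast* mice. In *b6/b6* mice its median was 5.99 at lower and 15.2 at higher intake, while in *cast/cast* mice the medians were 13.9 and 15.3. *Ddt*, the D-dopachrome tautomerase related to macrophage migration inhibitory factor, had medians of 248 and 583 normalized counts at lower and higher intake in *b6/b6* mice, and of 562 and 704 in *cast/cast* mice. The slopes were 0.68 ± 0.15 for *Aim1* and 0.52 ± 0.12 for *Ddt*. The remaining 9 had slopes between 0.44 and 1.01. They were *Fam196a*, the septin gene *Sept7* (listed in its spreadsheet form 7-Sep), the protease inhibitor *Serpinb1a*, *Gm14488*, the secreted protein gene *Ccdc80*, the poly(A)-binding protein gene *Pabpc4*, the mitochondrial genes *Glrx2* (a glutaredoxin) and *Hsd17b10* (a dehydrogenase), and *0910001L09Rik*. Their limma adjusted P was 0.48 throughout.

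Among negative slopes the lowest P was that of *Kif15*, a kinesin of dividing cells. It was scarce, at 3.69 to 13 normalized counts among *b6/b6* and 2.15 to 26.7 among *cast/cast* mice. Its medians were 9.58 at lower and 4.65 at higher intake in *b6/b6* mice, and 15.3 and 4.29 in *cast/cast* mice. The slope was −0.73 ± 0.15 (limma P = 6.2e-05, adjusted P = 0.43). *Hipk2*, a nuclear kinase, ran from 18.5 to 95.7 normalized counts for *b6/b6* and from 3.23 to 87.6 for *cast/cast* mice. The lowest value belonged to the *cast/cast* mouse that ate most, and the slope was −0.81 ± 0.19. *Adra1a*, the alpha-1A adrenergic receptor, had medians of 15.6 and 4.3 normalized counts at lower and higher intake in *b6/b6* mice and of 10.5 and 3.44 in *cast/cast* mice, with a slope of −0.79 ± 0.20. *Ksr2*, a scaffold of the Raf-MEK-ERK pathway whose loss makes mice obese, had medians of 30.1 and 21.8 among *b6/b6* and of 43.8 and 13.1 among *cast/cast* mice, with a slope of −0.69 ± 0.18. The other 8 were the neuronal splicing factor *Nova2*, *Gnaq* (a G protein alpha subunit), *Enah* (an actin regulator), *Rcan3* (a calcineurin regulator), *Morc2a*, *Pcdhga3*, *9130019O22Rik* and *A930017M01Rik*, with slopes from −0.86 to −0.25. *Pcdhga3* shares its 3′ exons with the other gamma protocadherins, so a 3′ tag cannot assign its counts to this gene alone. The limma adjusted P of these 11 genes was 0.48.

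**Figure D2:**
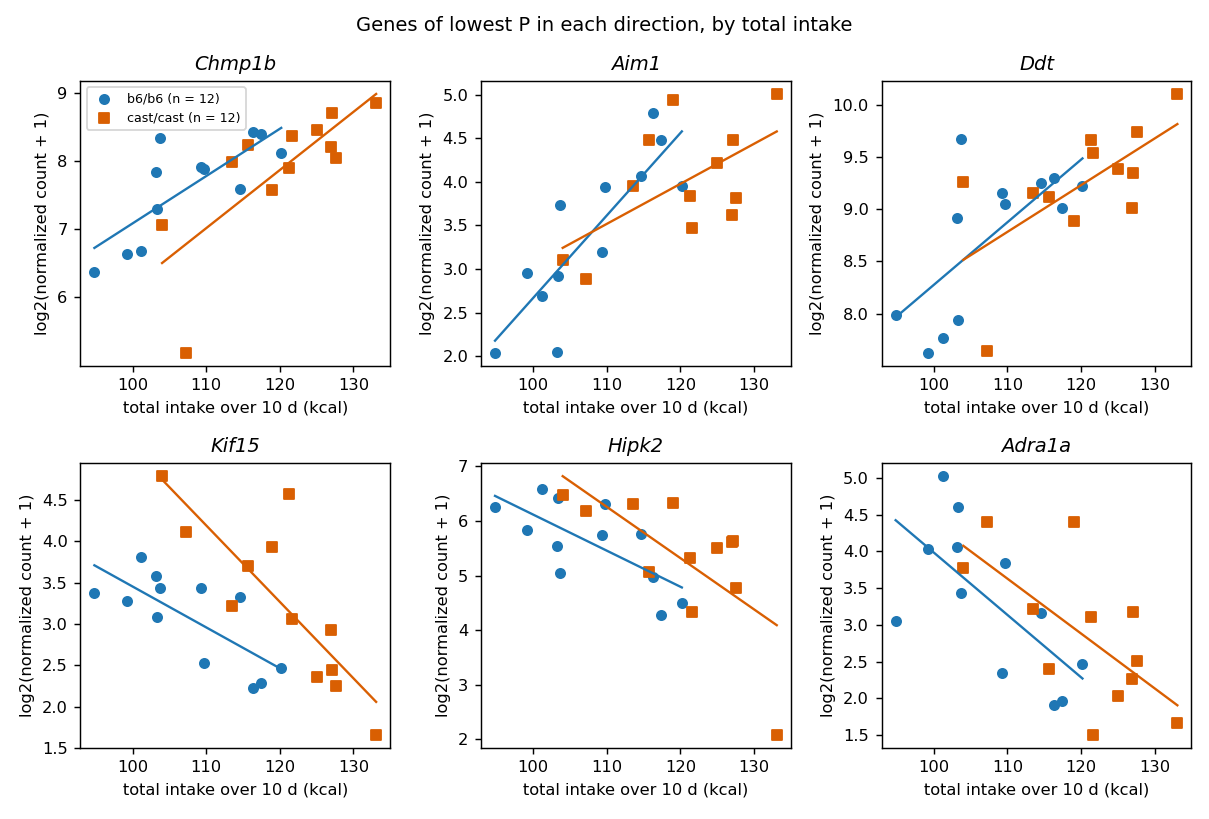
Expression as log2(normalized count + 1) against total intake over 10 d in kcal for 3 genes of positive slope (top row) and 3 of negative slope (bottom row), 1 point per mouse, 12 *b6/b6* mice as circles and 12 *cast/cast* mice as squares, with a least-squares line per genotype. The lines of a gene run the same way in both genotypes because only such genes were chosen. The *cast/cast* mouse at 107.2 kcal has the lowest *Chmp1b* value, 35.5 normalized counts.

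Of the appetite-stimulating peptide genes, 8 of the 10 listed were in the table, and none had a slope at an unadjusted P of 0.01 in either direction. Their slopes had a median of 0.10, beside −0.01 for all genes, with 5 positive and 3 negative. *Npy* was measured at 8.62 to 391 normalized counts in *b6/b6* (median 29.6) and 4.72 to 82.9 among *cast/cast* mice (median 41), and *Agrp*, which encodes the antagonist of melanocortin receptors, at 319 to 1655 (median 767) and 15.1 to 3686 (median 1208). The highest *Npy* values, 391 and 278, belonged to *b6/b6* replicates 6 and 12, which stand apart among the libraries. The slope was 0.10 for both genes, with 95% intervals of −0.64 to 0.85 for *Npy* and −0.69 to 0.89 for *Agrp*, so the error leaves room for slopes in either direction. *Hcrt*, encoding the hypocretins of the lateral hypothalamus, ran from 44.2 to 2704 normalized counts among *b6/b6* and 20.2 to 4102 among *cast/cast* mice, and its slope was 0.34 ± 0.40. *Pmch*, encoding melanin-concentrating hormone, ran from 3321 to 22150 and from 2388 to 15020, with a slope of 0.22 ± 0.19. *Penk* (enkephalins) had a slope of 0.23 ± 0.19, *Gal* (galanin) −0.01 ± 0.17, *Pnoc* (nociceptin) −0.02 ± 0.11 and *Qrfp* −0.15 ± 0.19.

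Of the appetite-reducing peptide genes, 15 of 18 were in the table, with 10 positive and 5 negative slopes and a median of 0.13. Only *Npvf*, which encodes RFamide-related peptides of the dorsomedial hypothalamus, had an unadjusted P of at most 0.01. Its place in this list was a choice made for this report, and the effect of its peptides on feeding was not tested. It gave 14.7 to 117 normalized counts with a median of 59.5 in *b6/b6* mice and 7.12 to 165 with a median of 55.7 in *cast/cast* mice. In *cast/cast* mice the 6 of lower intake had a median of 23.1 and the 6 of higher intake 81.6, while in *b6/b6* mice the medians were 59.5 and 58.4. The slope was 0.79 ± 0.26 (limma P = 0.0052, adjusted P = 0.48), with 0.23 among *b6/b6* and 1.27 among *cast/cast* mice. It was 0.50 (P = 0.12) without the 2 mice of most extreme intake and 0.70 (P = 0.013) without the 4 libraries that stand apart.

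*Cartpt*, encoding the CART peptides, was measured at 661 to 1415 normalized counts among *b6/b6* and 302 to 2048 among *cast/cast* mice. Its medians at lower and higher intake were 890 and 943 in *b6/b6* mice but 872 and 1411 in *cast/cast* mice, and the slope was 0.34 ± 0.15 (limma P = 0.029). For *Cartpt* this became 0.19 without *cast/cast* replicate 4 and 0.13 (P = 0.29) without the 4 libraries that stand apart. *Oxt*, encoding oxytocin, had medians of 363 and 216 at lower and higher intake among *b6/b6* and of 110 and 434 among *cast/cast* mice. The slope of *Oxt* was 0.52 ± 0.25 (limma P = 0.043), or 0.33 without *cast/cast* replicate 5 and 0.84 without the 4 libraries that stand apart. *Nmu*, encoding neuromedin U, was at 0 to 23.7 normalized counts, with a slope of 0.71 ± 0.34 (limma P = 0.045). *Pomc*, the precursor of the melanocortins, ran from 521 to 5589 normalized counts among *b6/b6* and 320 to 4527 among *cast/cast* mice, with medians of 1857 and 2287. Its slope was 0.01 ± 0.26, and its 95% interval of −0.52 to 0.55 leaves room for moderate slopes in either direction. The slopes of *Cck*, *Tac1*, *Trh*, *Nucb2*, *Nms*, *Bdnf*, *Nts*, *Adcyap1*, *Crh* and *Ucn3* lay between −0.33 and 0.31, each within 1.6 standard errors of 0. *Ucn3*, a peptide of the corticotropin-releasing hormone family, had slopes of 0.53 among *b6/b6* and −1.06 among *cast/cast* mice (limma P of the difference 0.023), and *Nucb2*, the precursor of nesfatin, −0.48 and 0.65 (limma P of the difference 0.0009). Neither difference passed adjustment over all genes. Without the 4 libraries that stand apart, the slopes of *Ucn3* were 0.37 among *b6/b6* and −1.11 among *cast/cast* mice, and those of *Nucb2* −0.23 and 0.46.

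**Figure D3:**
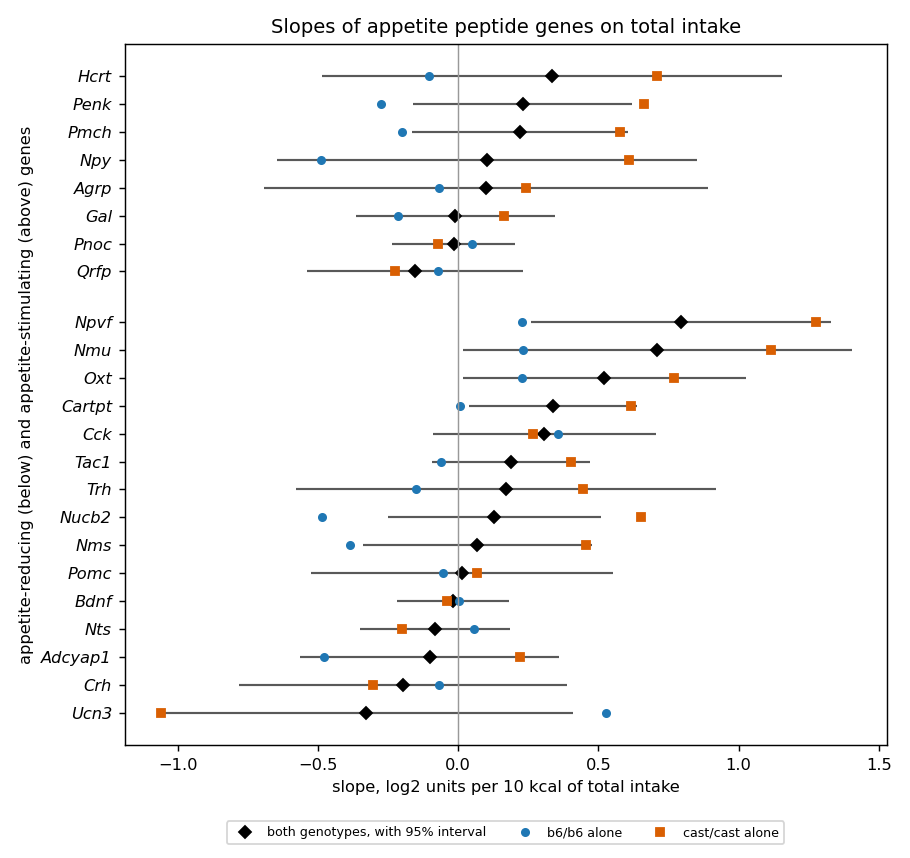
Slopes on total intake, in log2 units per 10 kcal, of the 8 peptide genes listed as appetite-stimulating (upper block) and the 15 listed as appetite-reducing (lower block). Diamonds with 95% intervals are the fit over 24 mice, circles the 12 *b6/b6* mice alone and squares the 12 *cast/cast* mice alone. The intervals of *Npvf*, *Nmu*, *Oxt* and *Cartpt* lie above 0. Of the 23 *cast/cast* slopes 17 are positive, against 9 of the *b6/b6* slopes. Over all 13998 genes, positive slopes number 6855 for the former genotype and 6760 for the latter.

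Receptors for these peptides and for metabolic hormones were close to the background. Of 39 measured genes, 19 had a positive and 20 a negative slope, the median was −0.02, and none reached an unadjusted P of 0.01. The lowest P was that of *Insr*, the insulin receptor, at 706 to 1018 normalized counts among *b6/b6* and 464 to 1279 among *cast/cast* mice. Within *cast/cast* mice its medians were 1054 at lower and 591 at higher intake, while in *b6/b6* mice they were 812 and 832. The slope was −0.20 ± 0.09 over all mice (limma P = 0.028), 0.04 among *b6/b6* and −0.41 among *cast/cast* mice. In *cast/cast* mice the slope of *Insr* was −0.43 without the libraries that stand apart. Leptin and insulin signalling genes had 10 positive and 23 negative slopes among 33, with a median of −0.10. *Socs1*, which blocks cytokine receptor signalling, ran from 14.5 to 111 normalized counts for *b6/b6* and from 1.82 to 171 for *cast/cast* mice. Its slope of 0.87 ± 0.26 (limma P = 0.003) was against the direction of most of the list, and it was 0.36 (P = 0.16) without the 2 mice of most extreme intake. *Gsk3b*, a kinase restrained by insulin, and *Foxo1*, the transcription factor that insulin excludes from the nucleus, had slopes of −0.24 and −0.23 (limma P = 0.015 and 0.032).

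Of the cellular energy sensing genes, 12 of 16 had negative slopes, with none at an unadjusted P of 0.01. Their median was −0.10, or −0.05 without the 4 libraries that stand apart. *Prkaa2*, a catalytic subunit of the AMP-activated kinase, had a slope of −0.23 ± 0.09, and *Camkk2*, a kinase upstream of it, −0.44 ± 0.19. Other hypothalamic peptides and hormones had 12 positive slopes among 16 and a median of 0.14, or 0.02 without the 4 libraries that stand apart. They were led by *Scg2*, a granin of secretory vesicles, with a slope of 0.46 ± 0.24. *Scg2* ran from 1607 to 10640 normalized counts among *b6/b6* and 983 to 13730 among *cast/cast* mice. Of 9 peptide processing genes, 6 had positive slopes, with a median of 0.03 over all mice, −0.14 among *b6/b6* and 0.30 among *cast/cast* mice. *Pam*, the enzyme that amidates peptides, had the lowest P of these, with a slope of −0.46 ± 0.19.

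Genes of oxidative phosphorylation, the subunits and assembly factors of the respiratory chain and ATP synthase, leaned to positive slopes. Of 82 measured, 72 had a positive slope beside 47.8% of all genes, and the median was 0.20, with quartiles of 0.07 and 0.37, beside −0.01 for all genes. None passed adjustment, 3 reached an unadjusted P of 0.01 and 16 an unadjusted P of 0.05, all 16 positive, where 5% of all genes had a positive slope at that limit. The summed level of the list ran from 278200 to 434500 normalized counts in *b6/b6* mice, with medians of 317800 at lower and 344900 at higher intake. In *cast/cast* mice it ran from 311200 to 563300, with medians of 348500 and 465300. The largest slope was that of *Ndufa1*, a small subunit of complex I. Its values ran from 318 through a median of 3100 to 9532 normalized counts for *b6/b6* and from 34.6 through 5774 to 10830 for *cast/cast* mice, and the slope was 1.29 ± 0.37 (limma P = 0.0018, adjusted P = 0.48). The lowest value, 34.6, was that of *cast/cast* replicate 5, without which the slope of *Ndufa1* was 0.80. *Atp5k*, a subunit of ATP synthase, and *Ndufs7*, an iron-sulfur subunit of complex I, had slopes of 0.999 ± 0.30 and 0.43 ± 0.14, and that of *Atp5k* was 0.59 without the same mouse.

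Within the *cast/cast* mice, 69 of 82 slopes were positive, with a median of 0.45, and 26 had an unadjusted P of at most 0.01, where 5.08% of all genes did so with a positive slope. Within the *b6/b6* mice, 39 of 82 were positive, the median was −0.05 and none reached that limit. Of all 13998 genes, 6855 had a positive slope with *cast/cast* mice alone, and 6760 had one with *b6/b6* mice alone. The slopes of 9 of the 82 genes differed between the genotypes at an unadjusted P of 0.01, where 5.19% of all genes did so. The median in *cast/cast* mice was 0.39, with 20 genes at that limit, without the 4 libraries that stand apart, and 0.34 with 0 genes without the 2 mice of most extreme intake. It was 0.10 with 1 gene when 2 principal components of all genes were covariates. Over all mice the median was 0.34 in those with study numbers up to 121 and 0.25 in those of 197 or more. The part of library composition in this pattern was not tested beyond these values. A split between the genotypes was not particular to this list. Medians in *b6/b6* and *cast/cast* mice were −0.05 and 0.19 for cytosolic ribosomal protein genes and −0.14 and 0.28 for cholesterol synthesis genes. They were −0.02 and 0.28 for oligodendrocyte and −0.04 and 0.24 for microglia markers. Thalamus markers, at 0.04 and −0.20, and neuron markers, at 0.01 and −0.15, split the other way.

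Cytosolic ribosomal protein genes had 38 positive and 19 negative slopes among 57, with a median of 0.11, and 2 positive and 1 negative slope at an unadjusted P of 0.01, limits that 0.879% and 0.893% of all genes passed. *Rps28* had a slope of 0.77 ± 0.25 and *Rpl26* of 0.29 ± 0.10, while *Rpl21* had −0.49 ± 0.16. Genes of this family have many near-identical copies in the genome, so their tag hits may be divided between loci. Glycolysis and pyruvate metabolism genes did not lean over all mice, with 13 positive and 15 negative slopes among 28 and a median of −0.01. The medians were 0.05 among *b6/b6* and −0.06 among *cast/cast* mice. The summed level of this list moved opposite ways in the genotypes. Its medians at lower and higher intake were 100600 and 128100 normalized counts in *b6/b6* mice and 153700 and 100500 in *cast/cast* mice. *Pfkl*, a phosphofructokinase, had the lowest P, with a slope of 0.17 ± 0.07. Cholesterol synthesis genes had 12 positive and 11 negative slopes, and a median of 0.05. *Hmgcs1*, an early enzyme of the pathway, had a slope of −0.26 ± 0.12, or −0.10 without *cast/cast* replicate 1.

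Fatty acid sensing and handling genes had 14 positive and 16 negative slopes among 30, with a median of −0.03. *Fabp7*, the fatty acid binding protein of astrocytes and radial glia, was the only one at an unadjusted P of 0.01. It gave 1191 to 7319 normalized counts in *b6/b6* (median 4612) and 1918 to 11990 among *cast/cast* mice (median 6107). Within *cast/cast* mice its medians were 4389 at lower and 7956 at higher intake, while in *b6/b6* mice they were 4438 and 4612. The slope was 0.53 ± 0.16 (limma P = 0.0024), and 0.26 (P = 0.034) without the 4 libraries that stand apart. *Fabp3* and *Acadm*, the latter a dehydrogenase of medium-chain fatty acid oxidation, had slopes of 0.23 and 0.48, and *Dgat2*, which makes triglycerides, of −0.44. Leaving out 1 mouse brought *Fabp3* to 0.12 (*cast/cast* replicate 4) and *Dgat2* to −0.27 (*cast/cast* replicate 1).

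Immediate early genes, which report recent neuronal activity, had 13 positive and 11 negative slopes among 24, with a median of 0.03. *Klf6* had the lowest P, with a slope of −0.56 ± 0.20. Glucocorticoid response genes had 14 negative slopes among 20 and a median of −0.12, or 0.001 without the 4 libraries that stand apart. They were led by *Zbtb16*, a zinc finger factor induced by the hormone. *Zbtb16* ran from 14.7 to 146 normalized counts for *b6/b6* and from 11.4 to 95.3 for *cast/cast* mice, with a slope of −0.62 ± 0.21 (limma P = 0.0075). Heat shock chaperone genes had 14 positive slopes among 18, with a median of 0.06. *Cryab*, the small heat shock protein alpha-B-crystallin that is abundant in oligodendrocytes, had medians of 203 at lower and 259 at higher intake in *b6/b6* mice and of 228 and 325 in *cast/cast* mice. Its slope was 0.42 ± 0.11 (limma P = 0.00072, adjusted P = 0.48).

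Circadian clock genes divided evenly, with 9 slopes in each direction, a median of −0.02 and none at an unadjusted P of 0.01. *Gm129* (also *Ciart*), a repressor within the clock, had a slope of 0.79 ± 0.30, with 0.03 among *b6/b6* and 1.44 among *cast/cast* mice (1.15 without the libraries that stand apart), and *Clock* itself of −0.43 ± 0.17, or −0.28 without *cast/cast* replicate 1. The dopamine and serotonin list had 4 positive and 8 negative slopes with none at an unadjusted P of 0.05, the lowest P being that of *Maob*, a monoamine oxidase, with a slope of 0.16 ± 0.10. Among 8 endocannabinoid genes, 6 had negative slopes, and *Dagla*, which makes 2-arachidonoylglycerol, had the lowest P with a slope of 0.26 ± 0.13. The slope of *Dagla* was 0.12 without *b6/b6* replicate 7, the mouse that ate least, which had 307 normalized counts where the other *b6/b6* mice had 578 to 1816.

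**Figure D4:**
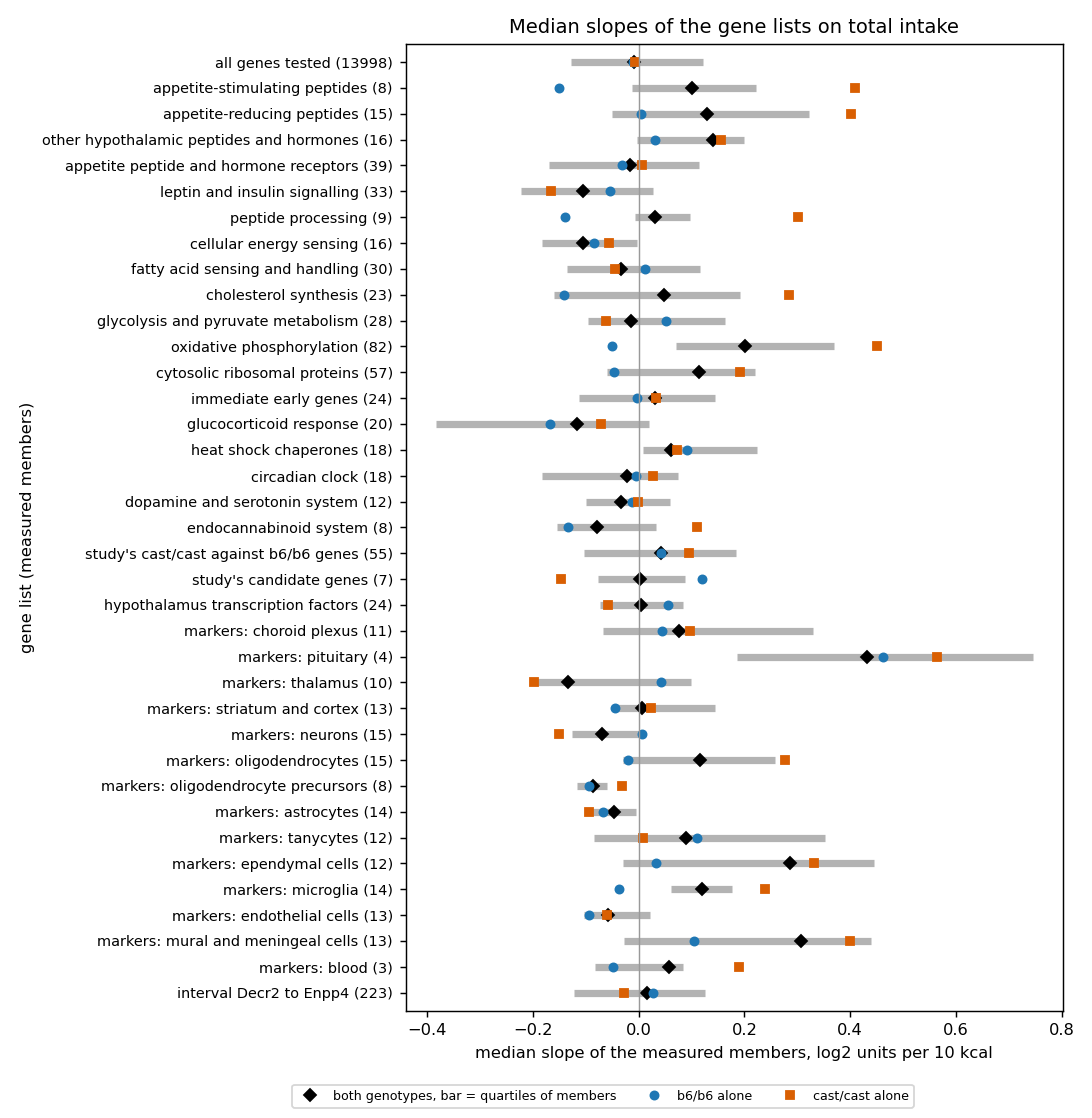
Median slope on total intake, in log2 units per 10 kcal, of each gene list, with the number of measured members in brackets. Diamonds with grey bars (quartiles of the members) are the fit over 24 mice, circles the 12 *b6/b6* mice alone and squares the 12 *cast/cast* mice alone. Oxidative phosphorylation genes have medians of 0.20 over all mice, −0.05 among *b6/b6* and 0.45 among *cast/cast* mice, while the median of all genes is −0.01.

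Single mice moved many of the list medians. Leaving out 1 mouse changed the median of 28 of the 35 lists by over 1.5 times or turned its sign, and 8 of these had a median more than 0.1 from 0. The median of oxidative phosphorylation genes stayed between 0.17 and 0.27 whichever mouse was left out, and that of leptin and insulin signalling genes between −0.14 and −0.09. That of glucocorticoid response genes was −0.05, of appetite-reducing peptide genes 0.01, of oligodendrocyte markers 0.04 and of microglia markers 0.06 without *cast/cast* replicate 4, and that of appetite-stimulating peptide genes was −0.0008 without *cast/cast* replicate 5.

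The Chr 17 segment was also followed, since it carries loci for carbohydrate and total energy intake. The 55 genes that the study lists as differing between the genotypes were chosen on these same libraries, and are no independent evidence. Within genotype, 31 of them had a positive and 24 a negative slope, with a median of 0.04. At an unadjusted P of 0.01, which 1.77% of all genes passed, there were 2 positive slopes among the 55, *Rpp21* (a subunit of ribonuclease P) and *H2-Aa* (a chain of the class II histocompatibility complex), and 1 negative, *Agpat1* (an acyltransferase of glycerolipid synthesis). *Rpp21* had 37.4 to 209 normalized counts among *b6/b6* and 0.91 to 12.4 among *cast/cast* mice, ranges that do not overlap. Its slope was 0.57 ± 0.17 over all mice, with 0.55 among *b6/b6* and 0.59 among *cast/cast* mice, and the 95% interval of the difference between them ran from −0.69 to 0.76. The slopes of *H2-Aa* and *Agpat1* were 0.61 ± 0.22 and −0.32 ± 0.11, the latter −0.19 without *cast/cast* replicate 1. By the means that the study lists, *H2-Aa* was almost absent in *cast/cast* mice, so its slope over all mice says little about that genotype. From *Decr2* to *Enpp4*, the outermost listed genes (chr17:26081210-44105808), 223 genes were measured, of which 5 had a positive and 2 a negative slope at that limit, beside 0.879% and 0.893% of all genes, and their median was 0.02. The study also puts forward *Decr2*, *Ppard* and *Agpat1* as candidates, which are counted here among the 55 and not in the candidate list. Of 7 other measured candidate genes of the interval, 4 had positive slopes. The lowest P among them was that of *Cdkn1a*, a cell cycle inhibitor, with −0.42 ± 0.17 over all mice, 0.01 among *b6/b6* and −0.78 among *cast/cast* mice. *Cdkn1a* had 645 normalized counts in *cast/cast* replicate 4, at 104 kcal, and 37.4 to 138 in the other *cast/cast* mice. Without that mouse the slope was −0.12 over all mice and −0.29 among *cast/cast* mice.

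The number of genes at the looser limit differed widely between the genotypes. In *cast/cast* mice alone, 1244 genes had a slope at an unadjusted P of 0.01 (8.89%), 711 of them positive, and 3680 (26.3%) at 0.05. In *b6/b6* mice alone, 42 did (0.3%), and 394 (2.81%) at 0.05. limma called 0 genes at an adjusted P of 0.05 in either genotype. DESeq2 called 1036 in *cast/cast* and 1, *Ebf3*, in *b6/b6* mice. That *cast/cast* count at an unadjusted P of 0.01 was 166 without the 2 mice of most extreme intake, 635 without the 4 libraries that stand apart and 97 with 2 principal components as covariates. It fell to 356 without replicate 4, 524 without replicate 1, 541 without replicate 5 and 822 without replicate 2, and was 2000 without replicate 6, when limma called 1321 genes at an adjusted P of 0.05. The *b6/b6* count was 166 without replicate 7. The counts thus turn on single mice.

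The slopes themselves differed between the genotypes at an adjusted P of 0.05 for 1 gene, *Ebf3* (0.00714% of genes). *Ebf3* encodes a transcription factor of the Ebf family that is expressed in particular hypothalamic and other brain nuclei. In *b6/b6* mice it ran from 28 through a median of 120 to 210 normalized counts, and the lowest value belonged to the mouse that ate least. The 6 *b6/b6* mice of lower intake had a median of 85.8 and the 6 of higher intake 178. Within *cast/cast* mice it ran from 49.5 through 124 to 270, where the highest value belonged to the mouse that ate least and the lowest to the mouse that ate most, and the medians were 205 at lower and 68.1 at higher intake. The ranges of the genotypes overlapped, and the order of the mice by intake ran opposite ways within them. The slope was 0.90 ± 0.18 among *b6/b6* and −0.76 ± 0.18 among *cast/cast* mice. The difference, *cast/cast* minus *b6/b6*, was −1.66 ± 0.26 (limma P = 1e-06, adjusted P = 0.014). Fitted to the recovered tag hits with edgeR it was −1.58 with an adjusted P of 0.035.

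The difference was negative in every alternative tried, but its call was lost in several. Among these were libraries rescaled to equal totals, study number as covariate and ranks of intake. By limma the adjusted P was 0.12 without *b6/b6* replicate 7, 0.10 without *cast/cast* replicate 4, 0.083 without *cast/cast* replicate 1 and 0.051 without *b6/b6* replicate 11. It was 0.20 without the 2 mice of most extreme intake and 0.084 without the 4 libraries that stand apart, with differences of −1.67 and −1.78. Within mice of study numbers up to 121 the difference was −1.87 (P = 0.00022), and within those of 197 or more −1.10 (P = 0.012), neither of which passed adjustment over all genes.

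The next lowest P were those of *Psma7*, a subunit of the proteasome core, and *Lcat*, which esterifies cholesterol. *Psma7* had medians of 620 at lower and 457 at higher intake in *b6/b6* mice and of 403 and 626 in *cast/cast* mice, with slopes of −0.33 and 0.59 (limma adjusted P of the difference 0.14). It had an adjusted P of 0.036 without *b6/b6* replicate 5 and of 0.031 without *cast/cast* replicate 5. *Lcat* had slopes of −0.47 and 1.02, and its lowest value, 7.62 normalized counts, was that of *cast/cast* replicate 4. Altogether, 726 genes (5.19%) had a difference of slopes at an unadjusted P of 0.01, and 207 did so without the 2 mice of most extreme intake.

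**Figure D5:**
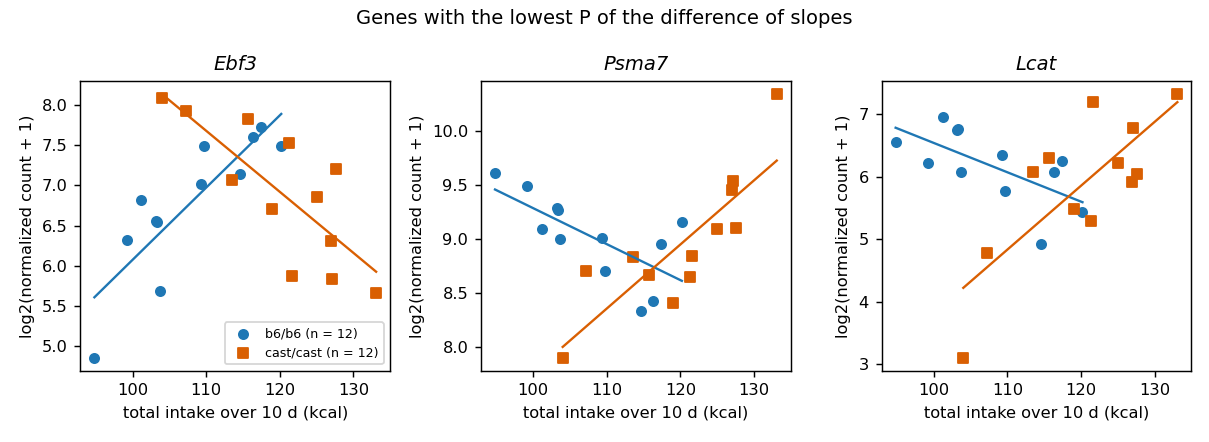
Expression as log2(normalized count + 1) against total intake over 10 d in kcal for the 3 genes with the lowest P of the difference of slopes, 1 point per mouse, 12 *b6/b6* mice as circles and 12 *cast/cast* mice as squares, with a least-squares line per genotype. *Ebf3* runs up with intake in *b6/b6* mice (slope 0.90) and down among *cast/cast* mice (slope −0.76).

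The tissue label was checked against genes that define the hypothalamus. *Pmch*, *Hcrt*, *Agrp*, *Pomc* and *Oxt* had tag hits in all 24 mice, and 24 of 34 listed hypothalamic transcription factor genes were in the table. The latter had 13 positive and 11 negative slopes with a median of 0.00. *Arnt2*, a partner of Sim1 in neuroendocrine neurons, had a slope of −0.49 ± 0.16 (limma P = 0.0039), or −0.32 without *cast/cast* replicate 1, and *Fezf2* of 0.77 ± 0.30. Markers of neighbouring tissue were present at varying levels. The choroid plexus list summed to 1307 to 2736 normalized counts, and its 11 measured genes had a median slope of 0.08, or −0.001 without *cast/cast* replicate 4. The pituitary list, of which *Gh*, *Cga*, *Fshb* and *Pitx1* were measured, summed to 0 to 472 with all 4 slopes positive and a median of 0.43. None of the 4 reached an unadjusted P of 0.05, and 1 slope was negative in each genotype alone. The median ran from 0.34 to 0.74 when 1 mouse was left out. With sums down to 0, these genes were at the floor in some libraries. Thalamus markers had 7 negative slopes among 10 and a median of −0.13, or −0.05 without *b6/b6* replicate 7. Striatum and cortex markers had 7 positive among 13 and a median of 0.01.

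Among cell types, the highest medians were those of mural and meningeal markers, with 9 positive slopes among 13 and a median of 0.31, and of ependymal markers, with 8 among 12 and 0.29. *Tagln*, of smooth muscle, had a slope of 0.55 ± 0.20 (0.34 without *cast/cast* replicate 5) and *Ccdc153*, of ciliated ependyma, 0.41 ± 0.14. Without the 4 libraries that stand apart the medians were 0.11 and 0.09, and without *cast/cast* replicate 4 alone that of mural and meningeal markers was 0.08. Oligodendrocyte markers had 11 positive slopes among 15 and a median of 0.12, with *Mbp*, myelin basic protein, at 0.36 ± 0.13. Microglia markers had 11 positive among 14 and 0.12, and tanycyte markers 8 of 12 and 0.09, with *Adm* at 0.69 ± 0.21. The medians of microglia and tanycyte markers were 0.02 and −0.004 without the 4 libraries. Neuron markers had 11 negative slopes among 15 with a median of −0.07, astrocyte markers 11 among 14 with −0.05, oligodendrocyte precursor markers 7 among 8 with −0.09, and endothelial markers 9 among 13 with −0.06. Blood markers, of which 3 were measured, had a median of 0.06. The part of these cell types in the slopes of other genes was not tested.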

How the data were processed

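Hypothalamus libraries of 24 F2 mice, 1 per mouse, were profiled by SAGE-Seq. The signal that the authors deposited per gene and mouse is a number of tag hits over a DESeq size factor. For mapping they had adapted the SOLiD SAGE Analysis Software, with RefSeq mRNA and GRCm38/mm10 as targets. The table also holds the authors' own genotype comparison, as deposited: mean levels, the fold change, its log2 and P values. None of these was used. Its 19529 rows hold 13998 genes with a lowest mean of 6.03 normalized counts, and genes not in it were not analysed here. All values were whole multiples of 1 step per library within a tolerance of 0.02, so whole tag hits were recovered.

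Genotype and intake came from the labels. limma 3.58.1 (lmFit and a trended eBayes) was fitted to log2(normalized count + 1), with genotype and total kcal as terms, for genes averaging 5 or more normalized counts. Slopes are per 10 kcal on this scale, which understates changes of low genes. Genotype-by-kcal terms and fits within each genotype followed. Calls required a Benjamini-Hochberg adjusted P of at most 0.05 over all 13998 genes, and an unadjusted P of at most 0.01 was a looser limit. Correlations with intake used 100000 permutations (two-sided). Alternatives were a pseudocount of 0.5 or 5, a minimum mean of 20 or none, libraries rescaled to equal totals, the recovered tag hits under edgeR 4.0.16 or DESeq2 1.42.0, C/P kcal or study number as covariate, ranks of intake, subsets of mice by study number, and leaving out each mouse or the 2 mice of most extreme intake. Leaving out the 4 libraries least correlated with the others, the number of genes without a tag hit, and 2 principal components were added after the data had been seen.

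Named were the 12 genes of lowest P in each direction with the same sign in both genotypes, the 3 of lowest P for the difference of slopes, all measured appetite peptides, and the lowest P of each other list, some of which are not reported here. Further genes were named after their values were seen. The question, the 35 lists and the tests were chosen with earlier results of these data known. Mice within a genotype were separate animals, and the 5 cohorts of the study are not given by the labels. The scripts were tested on simulated data.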

Additional observations from a re-analysis of the deposited data

Results flagged for a closer look

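The slope of *Ebf3* on total kcal differed between the genotypes in a test of the difference itself, by −1.66 ± 0.26 log2 units per 10 kcal (*cast/cast* minus *b6/b6*, 12 mice each), with a limma adjusted P of 0.014 over 13998 genes. The adjusted P over the leave-one-out fits ran from 0.0044 to 0.12. The call was lost with libraries rescaled to equal totals, with study number as covariate and with ranks of intake. It was also lost within either range of study numbers, without the 2 mice of most extreme intake and without the 4 libraries that stand apart.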

How the results depend on the processing

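Genes with a slope on total kcal within genotype at an unadjusted P of 0.01 numbered 248, and 409 by DESeq2, 373 with study number as covariate, 70 without the 2 mice of most extreme intake, 145 without the 4 libraries least like the others, 1244 with *cast/cast* mice alone, 42 with *b6/b6* mice alone, and 101 to 715 when 1 mouse was left out. The highest of these was without *b6/b6* replicate 7 and the lowest without *cast/cast* replicate 1. It was 424 without *b6/b6* replicate 9, 152 without *cast/cast* replicate 4 and 110 without replicate 5. At an adjusted P of 0.05 DESeq2 called 1 gene, and 0 to 1 were called with a mouse left out.

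The difference of slopes was called for 0 genes with libraries rescaled to equal totals, with study number as covariate, with ranks of intake, within either range of study numbers, without the 2 mice of most extreme intake and without the 4 libraries. It was called for 2 genes, *Ebf3* and *Psma7*, with C/P kcal as covariate, for 145 by DESeq2, and for 0 to 3 with a mouse left out. At an unadjusted P of 0.01 it numbered 1161 by DESeq2, 234 with study number, 140 in mice of study numbers up to 121, 81 in those of 197 or more, 207 without the 2 mice, 340 without the 4 libraries, 220 with 2 principal components, and 298 to 1094 with a mouse left out.

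In *cast/cast* mice alone the adjusted limit was passed by 1036 genes with DESeq2, by 2 (*Plekhh3* and *Polr1d*) without the 4 libraries, and by 0 to 1321 with a mouse left out. The looser limit was passed by 723 genes with C/P kcal as covariate, 166 without the 2 mice, 635 without the 4 libraries, 97 with 2 principal components, and 356 to 2000 with a mouse left out. In *b6/b6* mice alone the adjusted limit was passed by 1 gene with DESeq2 (*Ebf3*), by 1 with 2 principal components (*Ptplb*) and by 0 whichever mouse was left out. The looser limit was passed by 256 genes with DESeq2, 69 with the number of genes without a tag hit as covariate, 118 with 2 principal components, and 29 to 166 with a mouse left out. The cause of these shifts was not tested.

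Slopes of opposite sign, where the slope had an unadjusted P of at most 0.05, were −0.016 for *0910001L09Rik* and 0.17 for *Arnt2* in mice of study numbers of 197 or more, −0.0063 for *Nmu* with 2 principal components, and 0.044 for *Insr* and 0.0053 for *Cdkn1a* in *b6/b6* mice alone. Without the 2 *cast/cast* mice farthest from the median intake, the correlation of intake with the log2 number of genes without a tag hit was 0.13 and with the sum of normalized counts 0.13, from −0.32 and −0.34.

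No paired analysis was made, since the labels used here name no pairs or litters, and the replicate numbers only name the mice. The study describes its F2 mice as littermates, and whether mice of a genotype shared a litter was not tested. Tags carry no molecular identifiers, so replicate reads of a molecule cannot be told apart. With 12 mice a genotype, the median standard error of a slope was 0.20 among *b6/b6* mice and 0.17 among *cast/cast* mice, which limits what a slope within a genotype can show.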
